A study of Mus musculus with 36 samples.

Results

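Olfr46, Olfr874 and Olfr876 are 3 olfactory receptor genes, out of 57010 gene identifiers and 1093 receptor genes other than pseudogenes in the deposited tables. They were chosen by their measured levels with a floral and with a mint fragrance, which they separated, so their values in those libraries are a description and carry no test. The libraries hold RNA co-precipitated with phosphorylated ribosomal protein S6 (pS6) from the olfactory epithelium of wild-type C57BL/6J males aged 8 weeks. After 4 h alone in clean air, each mouse met for 90 min a filter paper with 10 µL of odorant on it, or an empty one. There were 36 libraries from 12 groups of 3 mice, split over 3 sets that the labels name as batches. The AD set holds acetophenone, decanal, their 1:1 mixture and no odor. The OC set holds octanal, cis-3-hexenol, their 1:1 mixture and no odor. The FM set holds a floral fragrance, a mint fragrance, a floral-mint fragrance that the labels name FM Mixture, and no odor. The labels do not give what the fragrances were made of. In the 1:1 mixtures a component was given in a smaller amount than alone, so its dilution and the presence of the other component cannot be told apart. The same limit may hold for the floral-mint fragrance set beside floral or mint.

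Olfactory receptors are G protein-coupled receptors in the cilia of olfactory sensory neurons. Each mature neuron expresses in general a single receptor gene, and an odorant that binds the receptor opens a cation channel through the G protein Gnal and the cyclase Adcy3. Activity in a neuron is followed by phosphorylation of S6, so an antibody to pS6 enriches the receptor messages of neurons that responded. The readout is of bulk tissue, in which more responding neurons and more receptor RNA per neuron cannot be told apart.

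Olfr874 (ENSMUSG00000063350) and Olfr876 (ENSMUSG00000066750) are neighbouring members of the mouse receptor subfamily MOR161 on chromosome 9, with Olfr875 between them. Olfr46 (ENSMUSG00000093942) belongs to subfamily MOR253 on chromosome 7. All 3 are protein-coding genes on the plus strand that overlap no other gene in the GENCODE vM21 annotation. Their coding sequences show how alike the receptors are, while the sharing of reads between them was not measured. Olfr874 and Olfr875 were identical over 95.6% of the coding bases, Olfr874 and Olfr876 over 88.9%, and Olfr874 and Olfr145, the next gene but 1 after Olfr876, over 82.5%. Olfr46 and its neighbour Olfr538 were identical over 94.2%, while Olfr46 and Olfr874 were identical over 56.1%. The following stretches of 120 coding bases are those where each pair to be told apart, Olfr874 and Olfr876 or Olfr46 and Olfr538, differed most. Positions are counted from the A of the start codon (bases 421 to 540 of the MOR161 genes, 361 to 480 of the MOR253 genes). Capitals mark bases that differ from the first receptor of the set.
Olfr874: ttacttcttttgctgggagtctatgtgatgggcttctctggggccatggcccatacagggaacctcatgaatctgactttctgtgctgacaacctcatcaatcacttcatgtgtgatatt
Olfr875: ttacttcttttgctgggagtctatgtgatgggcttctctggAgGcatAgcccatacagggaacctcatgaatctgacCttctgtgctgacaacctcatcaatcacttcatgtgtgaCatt
Olfr876: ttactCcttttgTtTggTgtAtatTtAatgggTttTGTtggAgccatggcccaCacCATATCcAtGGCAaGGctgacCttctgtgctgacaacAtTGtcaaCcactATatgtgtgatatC
Olfr145: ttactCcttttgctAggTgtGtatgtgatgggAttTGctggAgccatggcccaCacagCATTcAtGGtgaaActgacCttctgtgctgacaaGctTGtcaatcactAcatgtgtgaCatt
Olfr46: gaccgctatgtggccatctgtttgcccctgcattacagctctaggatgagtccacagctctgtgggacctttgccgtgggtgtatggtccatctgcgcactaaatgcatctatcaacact
Olfr538: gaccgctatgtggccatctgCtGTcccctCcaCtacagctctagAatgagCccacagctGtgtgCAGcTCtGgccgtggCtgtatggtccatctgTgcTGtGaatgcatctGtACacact
In this stretch Olfr876 differed from Olfr874 at 34 bases and Olfr875 at 5, and over the whole coding sequence of 933 bases the differences numbered 104 and 41. Olfr538 differed from Olfr46 at 22 bases of its stretch and at 54 in all. Olfr875 was the one receptor that reached 95% identity over 200 bases with any of the 3 genes, and reads of Olfr874 and Olfr875 may have been split between them. For Olfr46, Olfr537-ps1 and Olfr538 came close, at 94.5% and 94.4% of 958 aligned transcript bases. Reads of Olfr46 may have been shared with them as well, which was not tested. The deposited values are estimated counts, and they were fractional in 15 of 36 libraries for Olfr46, 6 for Olfr874 and 8 for Olfr876.

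A library held 16.04 to 26.4 M counts in all, and receptor genes took 0.232% to 0.734% of it. Markers of mature olfactory sensory neurons were abundant in every library and summed to 7983 to 29315 CPM (counts for each 1 M counted in a library). All 3 genes passed the filter on low counts in all 3 sets. Each set was fitted alone with the quasi-likelihood test of edgeR, and p-values were adjusted over all genes tested (19514 for AD, 19568 for OC and 19204 for FM). A gene counts as called where the adjusted p is under 0.05. Whether the libraries of compared groups overlap is a description, since the share of other genes without overlap was not counted. Changes are log2 changes ± standard error (SE), and levels are CPM on scaled library sizes, given as mean ± SD with n = 3.

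In the libraries that chose them, the 3 genes were high with the floral fragrance and low with mint. Olfr46 had 148.6, 104.8 and 84.1 CPM with the floral fragrance, against 8.93, 8.86 and 8.19 with mint. Olfr874 had 17.2, 15.02 and 8.76 CPM with the floral fragrance, against 0.623, 0.351 and 0.786 with mint. Olfr876 had 5.30, 7.31 and 3.77 CPM with the floral fragrance, against 0.239, 0.162 and 0.449 with mint. The 3 floral libraries lay above the 3 mint libraries for each gene. The log2 differences between floral and mint were 3.70 ± 0.218 for Olfr46, 4.58 ± 0.311 for Olfr874 and 4.32 ± 0.374 for Olfr876. The mint libraries lay near the no-odor libraries of the set, with log2 differences of -0.10 ± 0.217, -0.53 ± 0.397 and 0.03 ± 0.514 in the same order of genes. Per kilobase of exon, Olfr46 ranked 16 among the 1093 receptors with the floral fragrance and 239 with mint. Olfr874 ranked 63 with the floral fragrance and 637 with mint, and Olfr876 ranked 214 with the floral fragrance and 877 with mint.

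**Figure D1:**
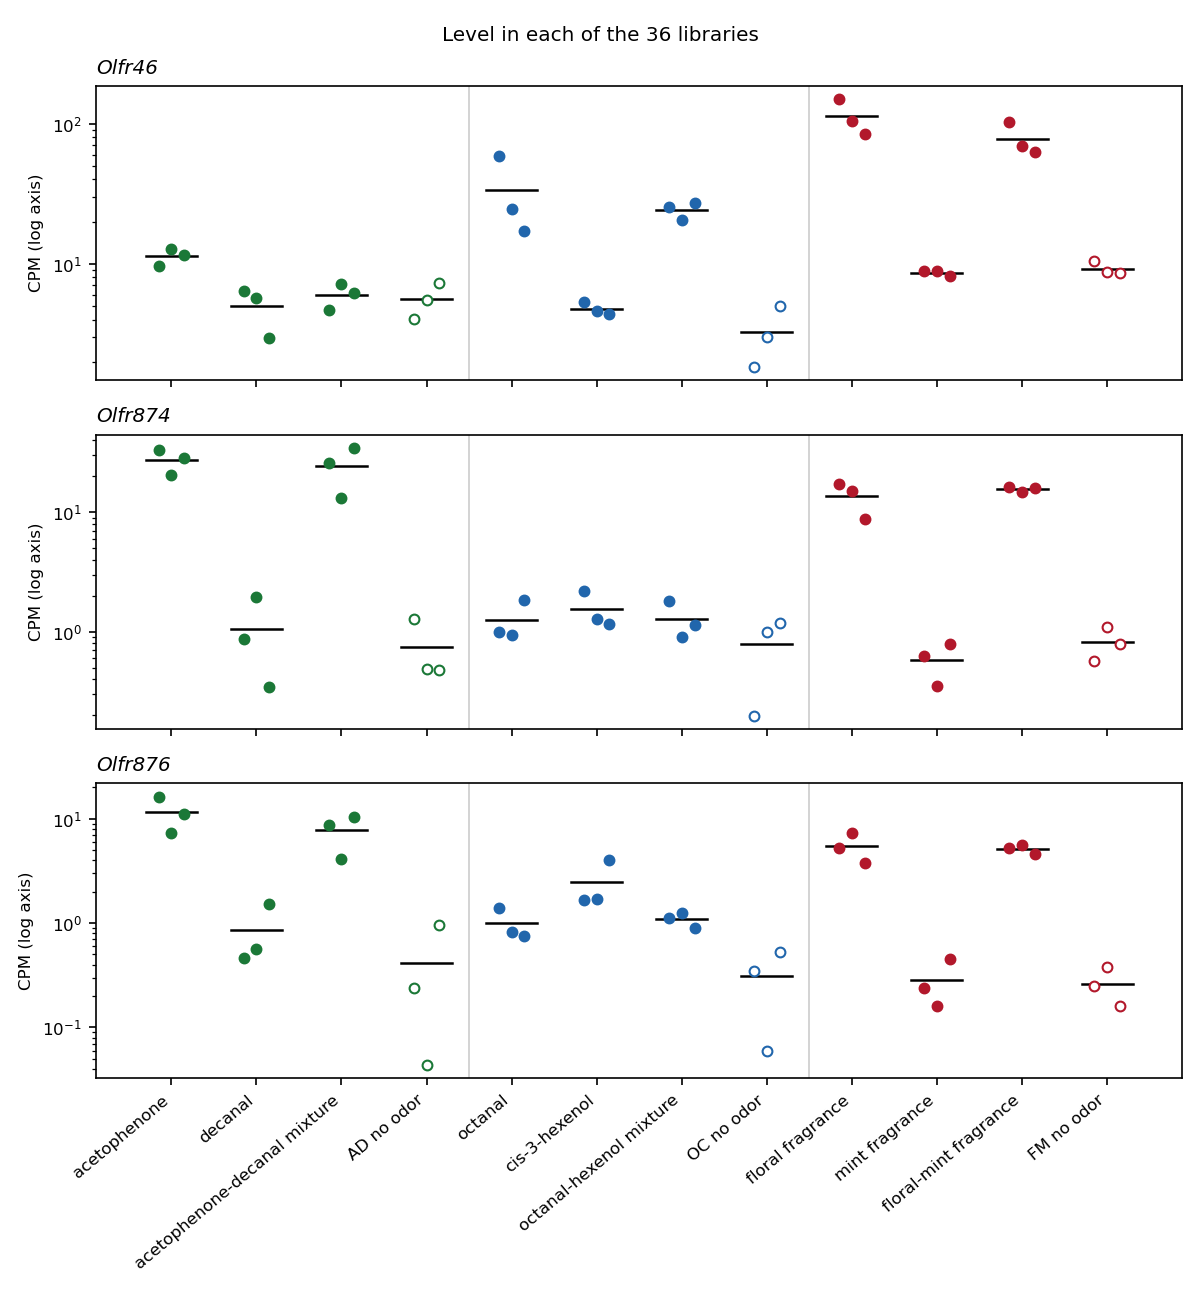
Level of Olfr46, Olfr874 and Olfr876 in each library (CPM, log axis) by group, with lines at the group means, open points for no odor and grey lines between the AD, OC and FM sets. Olfr874 and Olfr876 are high with acetophenone, the acetophenone-decanal mixture and the floral and floral-mint fragrances, while Olfr46 is high with octanal, the octanal-hexenol mixture and the same fragrances.

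The floral-mint libraries took no part in the contrast of floral with mint, though the no-odor libraries of the set may have entered the choice of the genes. The spread used in the test was estimated from all 12 libraries of the set, floral and mint included. The calls were kept where the 6 libraries compared were fitted alone. All 3 genes rose with the floral-mint fragrance, where 11.9% of the 846 receptors tested were called higher. Olfr46 had 102.7, 69.4 and 62.4 CPM with the floral-mint fragrance, against 10.5, 8.69 and 8.56 with no odor (log2 change 3.08 ± 0.211, adjusted p = 3.01e-07). Olfr874 had 16.2, 14.7 and 16.003 CPM with the floral-mint fragrance, against 0.570, 1.09 and 0.797 with no odor (log2 change 4.25 ± 0.285, adjusted p = 2.47e-07). Olfr876 had 5.29, 5.58 and 4.60 CPM with the floral-mint fragrance, against 0.249, 0.376 and 0.159 with no odor (log2 change 4.27 ± 0.361, adjusted p = 3e-06). No floral-mint library overlapped a no-odor library for any of the 3. Set beside the floral fragrance, the floral-mint libraries differed by -0.53 ± 0.188 on the log2 scale for Olfr46, 0.19 ± 0.220 for Olfr874 and -0.08 ± 0.266 for Olfr876, values given without a test. The 12 sensory neuron markers moved with the odor too: 9 rose (median log2 change 0.45), where 6.42% of all genes were called higher. Their summed level was 22276 to 24412 CPM with the floral-mint fragrance and 13430 to 15477 with no odor. Their part in the result was not tested.

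Acetophenone, an aromatic ketone, raised both MOR161 genes, and no AD library took part in choosing them. Olfr874 had 33.3, 20.4 and 28.3 CPM with acetophenone, against 1.27, 0.485 and 0.478 with no odor. Its log2 change of 5.17 ± 0.514 is a fold of 35.9 (adjusted p = 7.23e-05). Olfr876 had 16.2, 7.32 and 11.2 CPM with acetophenone, against 0.238, 0.0441 and 0.956 with no odor, a log2 change of 4.80 ± 0.680 and a fold of 27.8 (adjusted p = 0.00128). For both genes the acetophenone libraries lay above every no-odor library. The no-odor levels of Olfr876 rest on 6, 1 and 22 counts, and without no-odor replicate 3 its log2 change was 6.26. Without no-odor replicate 1 the log2 change of Olfr874 was 5.81. The calls of 2 of the 3 genes compare with 12.7% of the 867 receptors tested and 4.22% of all genes called higher with acetophenone.

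Olfr46 had 9.70, 12.8 and 11.5 CPM with acetophenone, against 4.05, 5.55 and 7.25 with no odor. These libraries did not overlap, but the log2 change of 1.01 ± 0.289 had an adjusted p of 0.0566 and missed the threshold. It was 0.0108 with DESeq2 and 0.0209 with no filter on low counts. Across the settings tried the adjusted p ran from 0.0108 to 0.197.

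With decanal, a straight-chain aldehyde, 0 of the 3 genes were called by edgeR, where 7.61% of the receptors tested were called higher. At an unadjusted p under 0.05 the count was also 0, and with DESeq2 it was 0. Olfr46 had 6.44, 5.67 and 2.96 CPM with decanal, against 4.05, 5.55 and 7.25 with no odor (log2 change -0.16 ± 0.294, adjusted p = 0.744). Olfr874 averaged 1.05 ± 0.814 CPM with decanal and 0.745 ± 0.456 with no odor, and Olfr876 averaged 0.850 ± 0.589 with decanal and 0.413 ± 0.480 with no odor. The intervals of 2 SE about their log2 changes, -0.73 to 1.67 for Olfr874 and -0.43 to 2.52 for Olfr876, leave room for changes of more than 1 log2 unit at these counts. The value of 1.04 for Olfr876 was 2.51 without no-odor replicate 3 (adjusted p = 0.0541), 0.53 without no-odor replicate 2 and 0.31 without decanal replicate 3, and that of 0.47 for Olfr874 was -0.32 without decanal replicate 2.

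The acetophenone-decanal mixture raised Olfr874 and Olfr876, where 13.3% of the receptors tested and 10.9% of all genes were called higher. Olfr874 had 25.98, 13.1 and 34.5 CPM with the mixture, against 1.27, 0.485 and 0.478 with no odor (log2 change 5.01 ± 0.513, adjusted p = 5.25e-05). Olfr876 had 8.68, 4.13 and 10.5 CPM with the mixture, against 0.238, 0.0441 and 0.956 with no odor (log2 change 4.22 ± 0.675, adjusted p = 0.00081). Leaving out no-odor replicate 3 gave 5.68 for Olfr876, and leaving out no-odor replicate 1 gave 5.65 for Olfr874. Olfr46 had 4.71, 7.16 and 6.19 CPM with the mixture, inside the range of the no-odor libraries (log2 change 0.10 ± 0.291, adjusted p = 0.856).

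Set against acetophenone alone, where 12.5% of the receptors tested and 14.4% of all genes were called lower, the mixture lowered Olfr46, and neither of the MOR161 genes passed the test. The log2 change of Olfr46 was -0.91 ± 0.289 (adjusted p = 0.0319), and all mixture libraries lay below all acetophenone libraries. Beside it, 8 of the 12 sensory neuron markers fell and 1 rose (median log2 change -0.43), and the 5 red blood cell markers all rose, with a summed level of 30649 to 37192 CPM in mixture libraries and 2567 to 13109 in acetophenone libraries. The 4 osteoclast and bone markers and 3 of the 4 neutrophil markers rose as well, where 2196 of 19514 genes were called higher. The part of these markers in the fall was not tested. The call of Olfr46 was lost without acetophenone replicate 2 or 3 (adjusted p = 0.0891 and 0.0699) and without mixture replicate 1 or 3 (0.109 and 0.0741). For Olfr874 the difference was -0.16 ± 0.391 (adjusted p = 0.814, interval of 2 SE -0.94 to 0.62), and for Olfr876 it was -0.58 ± 0.534 (adjusted p = 0.476, interval -1.64 to 0.49). With libraries scaled to the median receptor gene the difference of Olfr874 was 0.03. Set against decanal, the mixture raised Olfr874 by 4.54 ± 0.502 (adjusted p = 0.000494), where 5.42% of receptors were called higher. Olfr876 was 3.18 ± 0.628 log2 units above decanal, which missed the threshold (adjusted p = 0.0580), and that p ran from 2.68e-05 to 0.348 across the settings tried. For Olfr46 the difference from decanal was 0.26 ± 0.294 and missed the threshold. Acetophenone set directly against decanal raised all 3 genes, by 1.18 ± 0.292 for Olfr46 (adjusted p = 0.00799), 4.70 ± 0.503 for Olfr874 (adjusted p = 2.25e-05) and 3.75 ± 0.634 for Olfr876 (adjusted p = 0.000628). In that comparison 21.2% of receptors were called higher, and of 19514 genes 3226 were called higher and 2523 lower. Of the 12 sensory neuron markers 8 rose and 1 fell, and the 5 red blood cell, 4 osteoclast and bone and 4 neutrophil markers fell. Their part was not tested. Without decanal replicate 2 the value of Olfr874 was 5.49 against decanal for acetophenone and 5.33 for the mixture, and without decanal replicate 3 that of Olfr876 for acetophenone was 4.49.

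Olfr46 was the gene of the 3 with the largest log2 change with octanal, a straight-chain aldehyde with a shorter chain than decanal. Its level was 58.96, 24.7 and 17.0 CPM with octanal, against 1.83, 3.01 and 4.99 with no odor. The lowest octanal library lay above the highest no-odor library, and octanal replicate 1 lay far above the other two. The log2 change was 3.38 ± 0.408, a fold of 10.4 (adjusted p = 2.77e-05), and 2.68 without octanal replicate 1. With the octanal-hexenol mixture Olfr46 had 25.3, 20.4 and 27.1 CPM, a log2 change of 2.91 ± 0.404 against no odor (adjusted p = 8.76e-05). With cis-3-hexenol, a leaf alcohol, it had 5.37, 4.60 and 4.42 CPM, which overlapped the no-odor libraries (log2 change 0.57 ± 0.410, adjusted p = 0.444). Octanal exceeded cis-3-hexenol by 2.81 ± 0.388 (adjusted p = 0.000355), or 2.13 without octanal replicate 1, and the mixture exceeded cis-3-hexenol by 2.34 ± 0.384 (adjusted p = 0.00273). Octanal and decanal belong to different sets, and their effects on Olfr46 were not compared by a test.

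Olfr876 was called with every odor of the OC set, from low counts. It had 1.65, 1.68 and 4.04 CPM with cis-3-hexenol, 1.40, 0.827 and 0.757 with octanal and 1.12, 1.25 and 0.904 with the octanal-hexenol mixture, against 0.347, 0.0590 and 0.525 with no odor. The no-odor values rest on 7, 1 and 8 counts, and all odor libraries lay above them. The log2 changes were 2.97 ± 0.585 with cis-3-hexenol (adjusted p = 0.00994), 1.68 ± 0.602 with octanal (adjusted p = 0.0430) and 1.80 ± 0.595 with the mixture (adjusted p = 0.0293). The cis-3-hexenol call was lost without cis-3-hexenol replicate 3 (2.43, adjusted p = 0.0568). The octanal call was lost without octanal replicate 1 (1.34, adjusted p = 0.174) or no-odor replicate 1 or 2 (1.79 and 1.21, adjusted p = 0.0838 and 0.139). The call with the mixture was lost without mixture replicate 1 or 2 (1.79 and 1.71, adjusted p = 0.0642 and 0.0694) or no-odor replicate 1 or 2 (1.92 and 1.34, adjusted p = 0.0635 and 0.101). Olfr876 with octanal and with the mixture was -1.29 ± 0.512 and -1.17 ± 0.504 log2 units from its level with cis-3-hexenol, and neither difference passed (adjusted p = 0.0829 and 0.131).

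Olfr874 was called with none of the OC odors. It had 2.22, 1.27 and 1.17 CPM with cis-3-hexenol, 1.00, 0.945 and 1.84 with octanal and 1.80, 0.911 and 1.15 with the mixture, against 0.198, 1.00 and 1.18 with no odor. Its log2 changes of 0.99 ± 0.548, 0.69 ± 0.556 and 0.72 ± 0.551 had adjusted p-values of 0.305, 0.363 and 0.334. Called higher were 1 of the 3 genes and 7.93% of the 858 receptors tested for cis-3-hexenol, 2 of the 3 and 21.4% for octanal, and 2 of the 3 and 23.1% for the mixture. Against cis-3-hexenol, 16.0% of receptors were called higher for octanal and 13.5% for the mixture, Olfr46 among them in both. None of the 3 genes differed between the octanal-hexenol mixture and octanal by edgeR (adjusted p = 0.998 or above), where 1.28% of receptors were called higher. None of them passed at an unadjusted p under 0.05 either, and DESeq2 called none. For Olfr46 the difference was -0.47 ± 0.353 and turned to 0.24 without octanal replicate 1.

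The OC set differed in its controls. The 5 red blood cell markers had a summed level of 7450 to 23192 CPM in octanal libraries, 19526 to 28113 in cis-3-hexenol libraries and 9091 to 20582 in mixture libraries, against 78038 to 92617 with no odor. All 5 fell with each of the 3 odors, beside 14.4% of all genes for octanal, 3.16% for cis-3-hexenol and 14.8% for their mixture. The 12 sensory neuron markers had 20459 to 29315 CPM in octanal libraries, 11752 to 16627 in cis-3-hexenol libraries and 22794 to 26173 in mixture libraries, against 7983 to 10473 with no odor. Of the markers 12, 9 and 12 rose, with median log2 changes of 1.47, 0.82 and 1.56, where 17.9%, 2.58% and 17.7% of all genes were called higher. Of the 4 osteoclast and bone markers 4 fell for octanal (median -1.67), 3 for cis-3-hexenol (median -1.13) and 4 for the mixture (median -1.73). Of the 4 neutrophil markers 4 fell for octanal (median -2.16), 2 for cis-3-hexenol (median -1.03) and 4 for the mixture (median -1.85). The changes of Olfr876 with octanal and with the octanal-hexenol mixture lie near the sensory neuron medians, and the part of these markers in the calls was not tested. With acetophenone 11 of the 12 sensory neuron markers rose, with a median of 0.87, and with the acetophenone-decanal mixture 6 did, with a median of 0.41. All 4 osteoclast and bone markers fell with acetophenone (median -1.33), where 248 of 19514 genes were called lower. Their summed level was 1266 to 1835 CPM against 2551 to 3927 with no odor. With floral-mint 3 of the 4 fell (median -0.77), where 619 of 19204 genes were called lower. Their summed level was 1532 to 2357 CPM there against 3005 to 4187 with no odor. Of the neutrophil markers 1 fell with acetophenone. For decanal 2 rose and for the acetophenone-decanal mixture 2 did, where 10.8% and 10.9% of all genes were called higher. The part of these markers in the calls was not tested either.

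**Figure D2:**
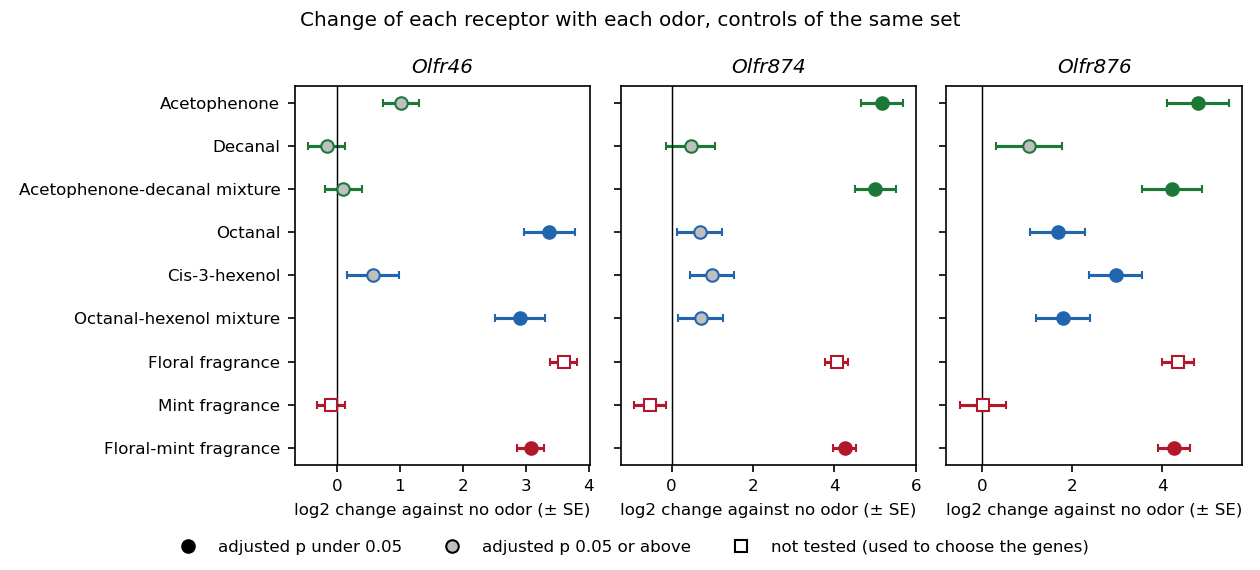
Log2 change ± SE of each gene with each odor against the no-odor libraries of the same set; filled points passed the test, grey points did not and open squares were not tested. Olfr46 stands at 3.38 with octanal and 1.01 with acetophenone, Olfr874 at 0.69 and 5.17, and Olfr876 at 1.68 and 4.80.

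Over the 12 groups the order of mean levels differed between the genes. Levels were scaled within each set, so the order across sets is a description. Olfr46 was highest with the floral fragrance at 112.5 ± 32.9 CPM, then with floral-mint at 78.2 ± 21.5, octanal at 33.6 ± 22.3, the octanal-hexenol mixture at 24.3 ± 3.46 and acetophenone at 11.3 ± 1.56. The floral and floral-mint libraries overlapped, as did those of octanal and its mixture, while the step from floral-mint to octanal and the step from the octanal-hexenol mixture to acetophenone were free of overlap. Its lowest mean was 3.28 ± 1.59 CPM in the no-odor mice of the OC set. Olfr874 was highest with acetophenone at 27.3 ± 6.49 CPM, then with the acetophenone-decanal mixture at 24.5 ± 10.8, floral-mint at 15.6 ± 0.811 and floral at 13.6 ± 4.37. Neighbours in that order overlapped. The next group, cis-3-hexenol, stood at 1.55 ± 0.576 and did not overlap the floral libraries, and the lowest was mint at 0.586 ± 0.220. Olfr876 followed with acetophenone at 11.6 ± 4.46 CPM, the acetophenone-decanal mixture at 7.76 ± 3.27, floral at 5.46 ± 1.78, floral-mint at 5.16 ± 0.504 and cis-3-hexenol at 2.46 ± 1.37. Its cis-3-hexenol libraries overlapped neither the floral-mint libraries next above nor those of the octanal-hexenol mixture next below. They did overlap the floral libraries, with 4.04 CPM at most against 3.77 CPM at least with floral. Per kilobase of exon, Olfr874 with acetophenone stood at 10.4 CPM per kb and Olfr46 with the floral fragrance at 14.4 CPM per kb.

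Within subfamily MOR161 (6 genes) 5 genes were called higher with acetophenone, where 12.7% of receptors and 4.22% of all genes were, and 3 with the floral-mint fragrance, where 11.9% and 6.42% were. Of the 3 floral-mint calls, 2 are Olfr874 and Olfr876, chosen for their floral level. With acetophenone the 5 came with a subfamily median log2 change of 4.63, against 0.0018 over all genes tested. Beside the pair these were Olfr145 (4.57 ± 0.461, adjusted p = 8.35e-05), Olfr875 (3.07 ± 0.687, adjusted p = 0.0193) and Olfr922 (4.69 ± 0.615, adjusted p = 0.000672). Olfr877 had 2.10 ± 0.976 and was not called (adjusted p = 0.241). The same 5 genes were called with the acetophenone-decanal mixture. With the floral-mint fragrance 3 of the 6 were called, the third being Olfr145 (2.09 ± 0.295, adjusted p = 0.000504), and the median was 1.80. Olfr875 (1.16 ± 0.483, adjusted p = 0.152) and Olfr922 (1.51 ± 0.561, adjusted p = 0.109) missed the threshold there. The difference between the acetophenone and floral-mint counts was not tested, since the fits are of separate sets. With octanal Olfr922 rose by 3.65 ± 0.647 (adjusted p = 0.000613) beside Olfr876, and Olfr145 and Olfr875 were not called.

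Within subfamily MOR253 (10 genes) the floral-mint call was that of Olfr46 alone, which was chosen for its floral level; 1 of 10 is near the 11.9% of all receptors called higher, and nothing is read from it. The median of the subfamily was -0.11 log2 units, and Olfr538, the closest in coding sequence, had 2.26, 2.59 and 2.49 CPM with the floral-mint fragrance, against 2.39, 3.69 and 1.69 with no odor. With octanal Olfr53 also rose (0.91 ± 0.327, adjusted p = 0.0436), which made 2 of 10 called where 21.4% of receptors were, and the median was 0.03. Olfr45 matched Olfr46 at 91.9% of 246 aligned bases, but at 88.5% over the coding sequence, below Olfr60 at 90.2%. Olfr45 was called higher with acetophenone set against decanal (1.70 ± 0.428, adjusted p = 0.00851) and lower in the acetophenone-decanal mixture set against acetophenone (-1.42 ± 0.421, adjusted p = 0.0234). Olfr538 had 1.15, 0.709 and 1.15 CPM with octanal, against 1.29, 1.23 and 0.525 with no odor, and the groups overlapped. With acetophenone Olfr61 rose (1.33 ± 0.346, adjusted p = 0.0388) and was the only one called, 1 of 10 where 12.7% of receptors were called higher. Decanal lowered 3 of the 10, Olfr60 (-1.20 ± 0.214, adjusted p = 0.00148), Olfr541 (-0.99 ± 0.226, adjusted p = 0.00658) and Olfr211 (-1.02 ± 0.248, adjusted p = 0.00931), and raised none, where 6.69% of receptors were called lower. The same 3 were lower with the acetophenone-decanal mixture, where 56 of 867 receptors and 2032 of 19514 genes were called lower. Olfr539 fell with the octanal-hexenol mixture (-1.12 ± 0.290, adjusted p = 0.00801), where 7 of 858 receptors and 2900 of 19568 genes were called lower. With acetophenone set against decanal 8 of the 10 were called higher, Olfr46 and 7 others (Olfr45, Olfr53, Olfr60, Olfr61, Olfr211, Olfr538 and Olfr541), with a median of 1.28, where 21.2% of receptors and 3226 of 19514 genes were called higher. The change of 1.18 in Olfr46 lies near that median. With the acetophenone-decanal mixture set against acetophenone 5 of the 10 were called lower, Olfr46, Olfr45, Olfr60, Olfr61 and Olfr211, where 12.5% of receptors were.

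**Figure D3:**
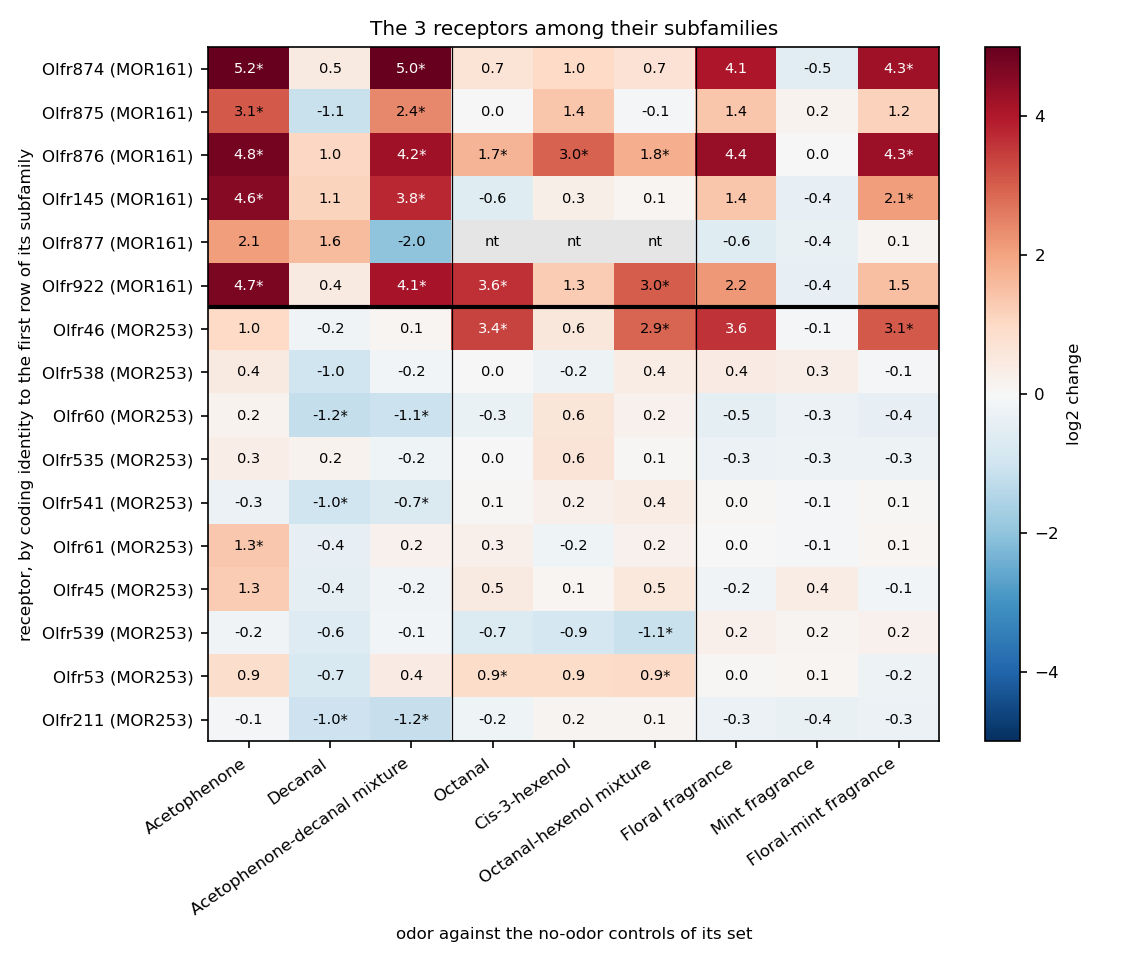
Log2 change of the 6 MOR161 and 10 MOR253 receptors (rows, ordered by coding identity to Olfr874 or Olfr46) with each odor (columns); stars mark called changes, the floral and mint columns were not tested and nt marks a gene filtered out. In the acetophenone column 5 of 6 MOR161 rows are starred, and in the floral-mint column the row of Olfr46 is the only starred row of MOR253.

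Olfr875, the near-identical neighbour of Olfr874, had a count whose share of that of Olfr874 differed between groups of different sets. Its count was 16.2% to 48.1% of that of Olfr874 with acetophenone and 9.04% to 41.4% with the acetophenone-decanal mixture. It was 3.93% to 9.65% with the floral fragrance and 3.37% to 6.96% with floral-mint. In the floral libraries Olfr875 had 17.3, 37.3 and 17.2 estimated counts beside 440.7, 386.5 and 213.6 for Olfr874. The 6 libraries with a fractional count of Olfr874 were those of floral and floral-mint, while the AD counts of both genes were whole. In no-odor libraries, from few counts, the share was 53.1% to 345% in AD and 35% to 48.3% in FM. Odor and set differ together here, and the part of read assignment was not tested. Adding both counts kept the calls of Olfr874, with a log2 change of 4.33 for acetophenone in place of 5.17 and 4.06 in place of 5.01 for its mixture.

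The ratio of Olfr874 to Olfr876 counts was narrow wherever both were high. Over the 12 libraries of acetophenone, its mixture, floral and floral-mint it lay between 2.05 and 3.48. With acetophenone it was 2.05 to 2.79, with the acetophenone-decanal mixture 2.99 to 3.29, with floral 2.05 to 3.24 and with floral-mint 2.63 to 3.48. With cis-3-hexenol, where Olfr876 was called and Olfr874 was not, the ratio was 1.34, 0.756 and 0.289. In the low groups it rests on few counts and ran from 0.226 to 17.0. These are ratios of counts, not of levels per length.

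**Figure D4:**
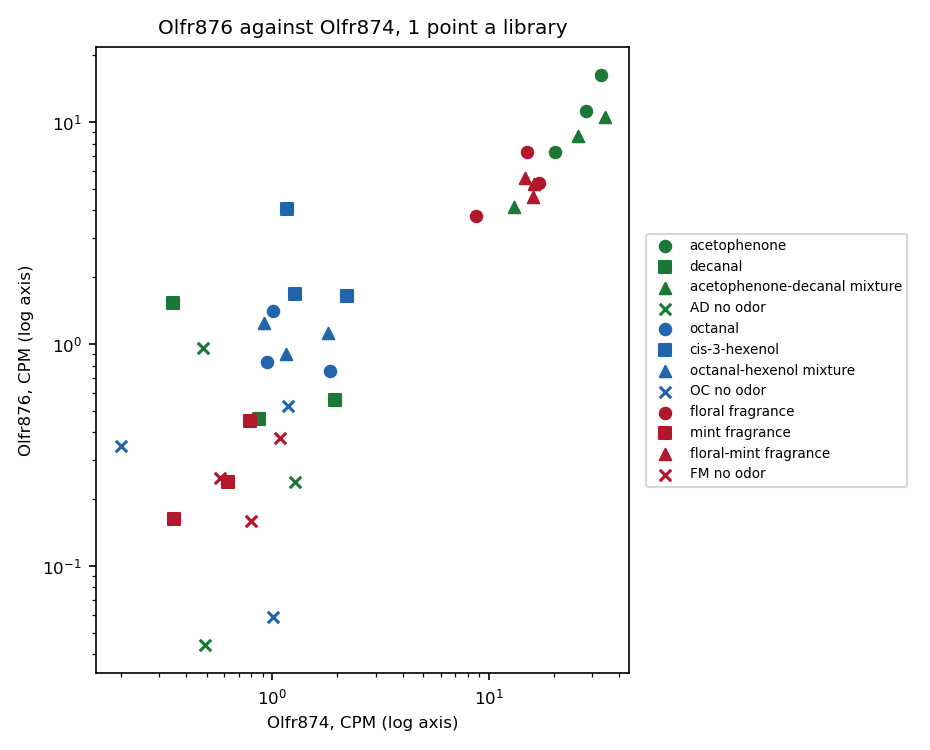
Olfr876 against Olfr874 in each library (CPM, both axes log), by group. The 12 libraries of acetophenone, its mixture, floral and floral-mint lie at the upper right, while the cis-3-hexenol libraries lie at 1.17 to 2.22 CPM of Olfr874 and 1.65 to 4.04 CPM of Olfr876.

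Likeness of pattern was measured as Pearson's r over the 36 libraries, on log2 CPM centred on the no-odor mean of the set, among 787 receptors. The libraries share sets, odors and controls, so r is a description. Olfr874 and Olfr876 had r = 0.88, and 0.83 over the 27 libraries outside the floral, mint and floral-mint groups. Olfr46 had r = 0.37 with Olfr874 and 0.42 with Olfr876, and 0.03 and 0.14 over those 27 libraries. The receptors most like Olfr46 were Olfr5 and Olfr318 (r = 0.81 each), Olfr47 (0.78), Olfr477 and Olfr1110 (0.77 each). Those most like Olfr874 were Olfr145 (0.88), Olfr749 (0.86), Olfr147 (0.82), Olfr491 (0.81) and Olfr109 (0.79), and the same 5 came out for Olfr876 at 0.76 to 0.81. The ranking used all 36 libraries, those that chose the genes included. Over the 27 libraries r with Olfr46 was 0.86 for Olfr5, 0.85 for Olfr318, 0.90 for Olfr47, 0.93 for Olfr477 and 0.76 for Olfr1110. Olfr5 showed log2 changes of 2.60 with octanal and 1.27 with floral-mint, and Olfr477 of 3.98 with octanal and 3.48 with floral-mint. With mint, where Olfr46 stood at -0.10, Olfr477 had 3.57, Olfr47 had 3.23 and Olfr1110 had 2.01, while Olfr5 had 0.55 and Olfr318 had -0.20. Olfr749 had 3.29 with acetophenone, 2.96 with floral-mint and 1.23 with mint, and Olfr491 had 1.81 with mint.

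Along chromosome 9, Olfr160, Olfr875 and Olfr145 were called higher with acetophenone beside Olfr874 and Olfr876, while Olfr877 and Olfr878 were not. Of these neighbours, Olfr145 alone was called beside the pair with floral-mint. Olfr151, next to Olfr874, was not analysed. Olfr160, a receptor known to respond to acetophenone and placed before Olfr874 in the gene order, had 12.9, 14.3 and 10.6 CPM with acetophenone, against 0.874, 0.573 and 0.261 with no odor (log2 change 4.44 ± 0.463, adjusted p = 0.000104). With floral-mint it had 0.540, 1.06 and 1.30 CPM, against 0.961, 1.50 and 1.12 with no odor (log2 change -0.31 ± 0.393, adjusted p = 0.694). Olfr18, the third receptor gene before Olfr874, passed the filter in the FM set alone and was not called with floral-mint (adjusted p = 0.726). Olfr878, after Olfr145, was called with neither (adjusted p = 0.956 with acetophenone and 0.945 with floral-mint). On chromosome 7 Olfr539 was called with neither octanal nor floral-mint, Olfr536 fell with octanal (-0.59 ± 0.185, adjusted p = 0.0230) and with floral-mint (-0.47 ± 0.104, adjusted p = 0.0107), and Olfr537-ps1 was called with neither (adjusted p = 0.674 and 0.470).

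Genes of the signalling chain below the receptors were called in the same libraries. Every sensory neuron marker used above except Stoml3 is also on this list. Its rises are therefore in large part those of the markers counted again, and the part of sensory neuron content was not tested. Of 20 genes of olfactory transduction, which include Gnal and Adcy3, 16 rose with acetophenone (median log2 change 0.84), 18 rose and 1 fell with octanal (median 1.36) and 12 rose with floral-mint (median 0.36). With decanal, where none of the 3 receptors was called, 9 of the 20 rose (median 0.30). Of 10 activity-induced genes such as Fos and Egr1, 2 rose with acetophenone, 6 with octanal and 5 with floral-mint, while 5 rose and 1 fell with decanal. Over all genes, 10.8% were called higher and 11.5% lower with decanal, and 6.42% were called higher with floral-mint. The share called higher was 4.22% with acetophenone and 17.9% with octanal, which had 14.4% called lower.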

How the data were processed

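RNA from pS6 immunoprecipitates of single mice was sequenced, and the authors deposited a table of expected counts (estimated counts) per gene for each set. The labels' protocols name a stranded mRNA kit. Per the submitters' processing notes the build was GRCm39, and the tools included Salmon 1.10.1, R 4.4.2 and STAR 2.7.10b. Which step gave the counts, and the annotation, are not given in the sources used here. Of 57010 identifiers 52081 were named from GENCODE vM21, an annotation of GRCm38, so no coordinates are given, and coding sequences come from its transcripts. Unnamed identifiers held 0.275% to 0.642% of a library's counts. Of the values above 0, 26.5% to 37.2% per library were fractional, and counts were rounded for the tests. No libraries were duplicates.

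Each set of 12 libraries was fitted alone in edgeR 4.0.16 (R 4.3.3, limma 3.58.1) with its 4 groups as terms, filterByExpr (minimum count 10, minimum total 15), TMM scaling, prior count 0.125 and 2-sided quasi-likelihood tests. Benjamini-Hochberg adjustment ran over all genes tested in a set, and an SE is the size of the log2 change divided by the root of F. The procedure was checked on simulated data. In all 13 comparisons were tested for each of the 3 genes, 39 tests, and 5 that use floral or mint libraries were described without p. DESeq2 1.42.0 was an alternative. Levels per kilobase used the exon bases of each gene.

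The genes, lists and alternatives were chosen with earlier results of these data known. Beside the 3 genes, the text names by rule the 5 receptors most correlated with each, the 3 most identical in transcript (blastn 2.17.0), the 3 receptor genes on each side, and any receptor of at least 95% identity over 200 bases. Subfamilies, from RefSeq synonyms, and the sum of Olfr874 and Olfr875 were added after the data were seen, and subfamily members with calls were named. Pseudogenes were not ranked for likeness, and Olfr151 was not analysed here.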

Additional observations from a re-analysis of the deposited data

How the results depend on the processing

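Of the 39 tests 19 passed, and 15 of these passed in every alternative run. The other 4 were the fall of Olfr46 between the acetophenone-decanal mixture and acetophenone, and Olfr876 with octanal, cis-3-hexenol and their mixture. DESeq2 gave Olfr876 with cis-3-hexenol no adjusted p. The causes of the following changes were not tested. Olfr46 with acetophenone passed with DESeq2 (1.01) and with no filter (1.01). Olfr876 between the acetophenone-decanal mixture and decanal passed with DESeq2 (3.19, adjusted p = 0.0195), all 36 libraries in a single fit (3.18), no filter (3.17), the 6 libraries compared (3.17) and receptor scaling (3.15). Fitting the 6 libraries compared ended the call of Olfr876 with octanal (1.66). Scaling to the median receptor gene shifted the median of all genes by -0.54 to 0.32, depending on the comparison. It ended the calls of Olfr876 with octanal (1.49) and the octanal-hexenol mixture (1.30) and of Olfr46 between mixture and acetophenone (-0.75). It turned the uncalled values of Olfr874 between mixture and acetophenone (0.026), octanal and cis-3-hexenol (0.014), and the octanal-hexenol mixture and octanal (-0.25), the last also for Olfr876 (-0.19). Summing Olfr874 with Olfr875 turned Olfr874 with decanal (-0.24) and between the octanal-hexenol mixture and octanal (-0.0062), and moved floral-mint against mint to 4.07.

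Leaving out each library in turn changed a call or a sign in the following tested results, given as the range of log2 changes. For Olfr46 these were -1.06 to -0.77 for acetophenone-decanal mixture against acetophenone, -0.0080 to 0.48 for acetophenone-decanal mixture against decanal, -0.091 to 0.32 for acetophenone-decanal mixture against no odor, -0.38 to 0.11 for decanal against no odor and -0.79 to 0.24 for octanal-hexenol mixture against octanal. For Olfr874 these were -0.49 to 0.14 for acetophenone-decanal mixture against acetophenone, -0.32 to 1.11 for decanal against no odor, -0.67 to 0.055 for octanal against cis-3-hexenol, -0.55 to 0.091 for octanal-hexenol mixture against cis-3-hexenol and -0.28 to 0.40 for octanal-hexenol mixture against octanal. For Olfr876 these were 2.88 to 3.91 for acetophenone-decanal mixture against decanal, 2.43 to 3.47 for cis-3-hexenol against no odor, 1.21 to 2.22 for octanal against no odor, 1.34 to 2.34 for octanal-hexenol mixture against no odor and -0.041 to 0.48 for octanal-hexenol mixture against octanal. Among values without a test, the sign changed for Olfr46 with mint (-0.15 to 0.0059) and Olfr876 with mint (-0.43 to 0.37) against no odor, and between floral-mint and floral for Olfr874 (-0.042 to 0.38) and Olfr876 (-0.29 to 0.18).

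Replicate numbers did not pair the mice: correlations of same-numbered libraries ran from -0.194 to 0.187, and 10 of 36 libraries were closest to their own number. With the replicate number as a block, 20 of the 39 tests passed, the added one being Olfr876 between the acetophenone-decanal mixture and decanal (3.21, adjusted p = 0.0142). With counts of receptors as the denominator 12 of 36 group levels moved by more than their SD, and with unscaled totals none did. Spearman's coefficient differed for 5 of the 15 likenesses. Near 1 to 8 counts, as for Olfr876 without odor in the OC set, counting error limits what can be seen.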
